A study of Homo sapiens with 6 samples.

Results

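NDRG1, PPFIA4, DDIT4, BNIP3, BNIP3L, ANKRD37, KDM3A, AK4, ADM and CA9 are 10 genes known to be switched on when cells lack oxygen and whose products act outside the glycolytic pathway. They were taken by symbol from a table of 60748 genes, and 9 of the 10 were among the 18275 genes that passed a filter on low counts. NDRG1 and PPFIA4 were included because they lay among the genes with the largest decreases in these same libraries. Differences of the 10 genes between the groups are therefore given as a description, with no p-value for any of them. Counts of calls among them appear only where settings are compared at the end, and nothing is read from those counts. RNA was sequenced in the human hepatic stellate line LX-2, an established cell line, and levels are given as counts-per-million (CPM) after TMM scaling of library sizes. Libraries are named by group and replicate number, as in LX-2FAP 1, and log2FC is the log2 fold change of LX-2FAP over LX-2Vector fitted by edgeR. LX-2FAP cells (n = 3) stably overexpressed fibroblast activation protein α (FAPα, encoded by FAP), a membrane serine protease. LX-2Vector cells (n = 3) were the control. Per the study's methods both were made with lentivirus, with the FAPα overexpression plasmid in LX-2FAP and the corresponding vector in LX-2Vector. The vector named for this pair carries a ubiquitin promoter, EGFP and puromycin resistance. Cells of both kinds were cultured for 24 h in DMEM with 10% fetal bovine serum and 5% CO2, and no low-oxygen treatment is named in the labels. Per the same methods, stably overexpressing clones were picked under puromycin, and the number of clones behind each line is not stated in the sources used here. A difference between clones and a difference due to FAPα cannot be told apart in this design. Nothing in the labels says that the 3 libraries of a group came from separate cultures, so p-values measure only the spread between these samples, which may be technical.

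Cells sense oxygen through prolyl hydroxylases of the EGLN family, which use it to mark the α subunits of hypoxia-inducible factor (HIF) for destruction through VHL. When oxygen is short the α subunits persist, pair with ARNT and bind a short DNA core upstream of many genes. In injured liver, low oxygen is a known part of the setting in which stellate cells make matrix and angiogenic factors.

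The core letters of a hypoxia response element were looked for in the RefSeq promoter windows of the genes (build GRCh38.p14), each from 250 bases before to 50 after a transcription start, on both strands. Windows were matched for 8 of the 10 genes, all but NDRG1 and BNIP3L. ACGTG occurred in 6 of these 8 genes (PPFIA4, DDIT4, BNIP3, ANKRD37, AK4 and CA9), where 24.9% of 27305 genes with a window hold it. GCGTG occurred in 6 of 8 (PPFIA4, DDIT4, BNIP3, KDM3A, AK4 and ADM), against 40.6% of genes. Either one occurred in 8 of 8, against 52.4%. A gene with several starts, such as AK4 or KDM3A, was counted once if any of its windows held the letters. The palindrome CACGTG holds ACGTG on both strands and was present in PPFIA4, BNIP3, ANKRD37 and AK4. The sequences that follow are from the 6 genes in which ACGTG occurred, and they show where these letters lie. Capitals mark ACGTG or GCGTG or their reverse complements, all letters read 5′ to 3′ on the gene's strand, and a match is a description and not a shown binding site. For ANKRD37 and CA9, whose cores lie inside annotated exons, 30 bases are given. The stretches are chr1:203026241-203026490 (plus strand) for PPFIA4, chr10:72273674-72273919 (plus) for DDIT4, chr1:65147302-65147548 (plus) for AK4, chr10:131982014-131982173 (minus) for BNIP3, chr4:185396667-185396696 (plus) for ANKRD37 and chr9:35673898-35673927 (plus) for CA9. In PPFIA4 the palindrome starts 119 bases upstream of the RefSeq start, in BNIP3 134, in ANKRD37 162 and in AK4 93 bases upstream. In DDIT4 the ACGTG starts 125 bases upstream and in CA9 the reversed core 18 bases upstream.
PPFIA4: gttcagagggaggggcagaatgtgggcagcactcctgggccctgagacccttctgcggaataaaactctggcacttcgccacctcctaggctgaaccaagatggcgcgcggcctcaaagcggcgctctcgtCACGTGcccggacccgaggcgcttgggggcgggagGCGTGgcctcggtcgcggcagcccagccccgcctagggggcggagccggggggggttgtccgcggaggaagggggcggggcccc
DDIT4: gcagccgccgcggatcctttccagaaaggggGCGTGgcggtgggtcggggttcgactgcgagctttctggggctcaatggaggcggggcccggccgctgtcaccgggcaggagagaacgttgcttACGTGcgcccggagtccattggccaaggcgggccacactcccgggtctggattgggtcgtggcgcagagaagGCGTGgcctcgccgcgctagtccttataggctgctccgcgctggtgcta
AK4: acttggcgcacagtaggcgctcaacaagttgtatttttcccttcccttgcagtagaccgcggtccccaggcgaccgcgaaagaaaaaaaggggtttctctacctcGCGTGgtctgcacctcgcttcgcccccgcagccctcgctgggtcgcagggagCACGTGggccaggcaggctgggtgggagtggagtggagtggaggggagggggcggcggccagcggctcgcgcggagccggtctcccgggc
BNIP3: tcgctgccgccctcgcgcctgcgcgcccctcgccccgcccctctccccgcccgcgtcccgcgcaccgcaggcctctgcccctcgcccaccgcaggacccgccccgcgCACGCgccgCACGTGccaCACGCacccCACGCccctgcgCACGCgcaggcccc
ANKRD37: ggcgccgggctcCACGTGccagtgtttgtg
CA9: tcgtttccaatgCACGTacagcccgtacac

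Total counts ran from 17355700 to 26352060 per library. FAP had 42 to 55 counts in the LX-2Vector libraries and 14805 to 15160 in the LX-2FAP libraries (edgeR log2FC 8.33, SE 0.13, adjusted p = 4.47e-16). Of 18275 tested genes, 967 passed an edgeR adjusted p under 0.05 (5.29%), 498 lower in LX-2FAP (2.73%) and 469 higher (2.57%). Of the stellate and mesenchymal markers, VIM, COL1A1 and PDGFRB were present in every library (VIM 26924 to 41397 counts, COL1A1 3580 to 8338, PDGFRB 310 to 702), while TAGLN had 258 to 372, ACTA2 49 to 91, COL1A2 13 to 33 and DES 0 to 1. Summed over 7 stellate markers the level was 1851 to 1956 CPM in the LX-2Vector libraries and 1916 to 2032 CPM in LX-2FAP, with COL1A1 and PDGFRB called lower and VIM higher. ACTA2 was not called (log2FC -0.36, edgeR adjusted p = 0.145), although its groups did not overlap. Summed over the 8 markers of hepatocytes, leukocytes, endothelium and epithelium it was 9.46 to 12.6 CPM in the LX-2Vector libraries and 9.80 to 12.5 CPM in LX-2FAP, with ALB at 1 to 3, APOA1 at 0 to 1 and PTPRC, the most counted of them, at 97 to 130 counts. The part of the marker differences in the results that follow was not tested. In bulk RNA of this kind, fewer cells that express a gene and less RNA per cell cannot be told apart.

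All 9 genes that passed the filter had a lower fitted level in LX-2FAP than in LX-2Vector, with log2FCs from -0.98 (NDRG1) to -0.10 (KDM3A and ADM) and a median of -0.42, where the median of all tested genes was -0.01 and 53.0% of them were below 0. The 3 LX-2FAP libraries lay below the 3 LX-2Vector libraries, with no overlap, for NDRG1, PPFIA4, DDIT4 and KDM3A, beside 13.4% of all tested genes. Nothing is read from these counts, since NDRG1 and PPFIA4 were chosen from this contrast. All 9 fitted values were also below 0 with the DESeq2 Wald test and with each library left out in turn.

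**Figure D1:**
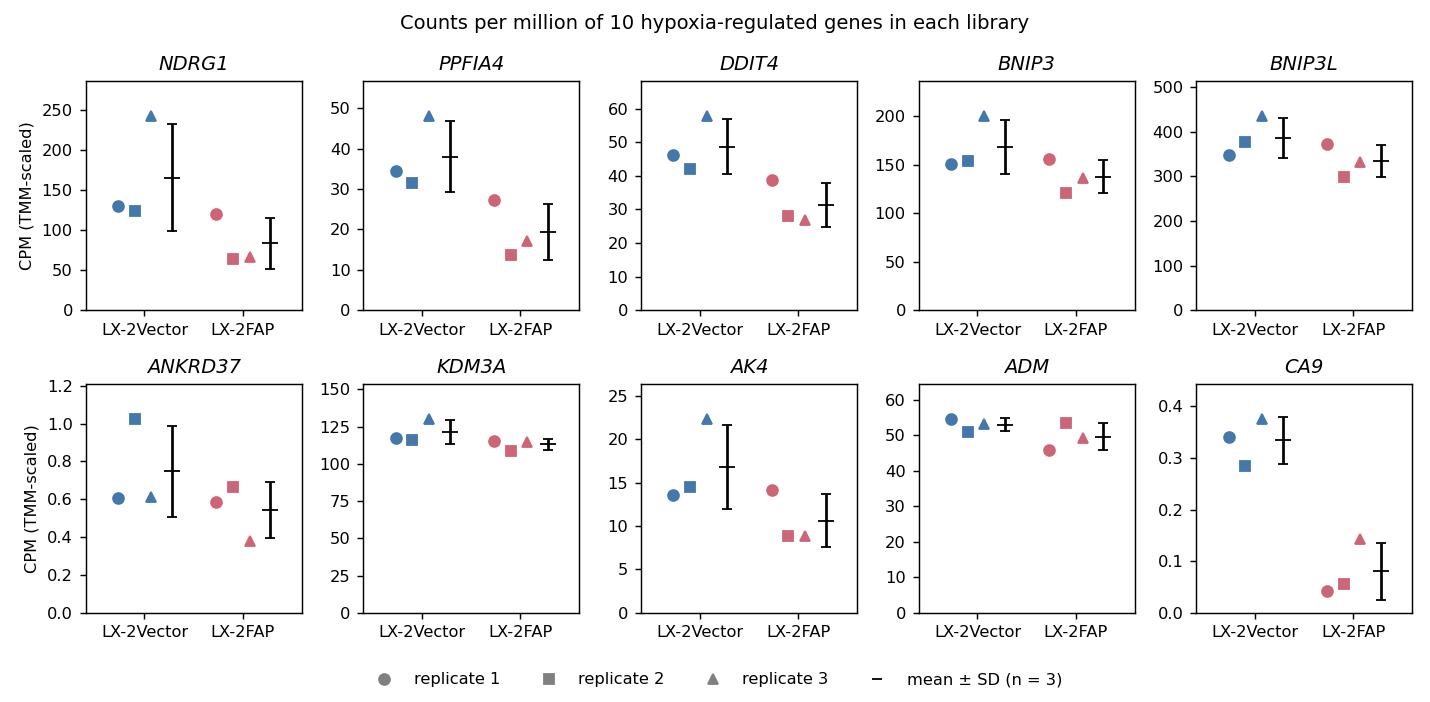
Counts-per-million (TMM-scaled, linear axis from 0, own scale for each gene) of the 10 genes in each LX-2Vector and LX-2FAP library, with symbols for the replicates and the mean ± SD of each group beside them. NDRG1, PPFIA4, DDIT4 and KDM3A show no overlap between the groups, beside 13.4% of all tested genes (lower in LX-2FAP), and nothing is read from these counts. The barely detected CA9, which is not among the tested genes, shows no overlap either. Between LX-2Vector 2 and LX-2FAP 1 the gap is narrow for NDRG1 (123.5 against 120.2 CPM) and KDM3A (115.8 against 115.7 CPM).

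NDRG1 (N-myc downstream regulated 1, a cytoplasmic protein of the NDRG family that is widely used as a marker of low oxygen; ENSG00000104419, GRCh38 chromosome 8, 133237171 to 133302022, minus strand) had 130.7, 123.5 and 243.0 CPM in LX-2Vector 1, 2 and 3. In LX-2FAP 1, 2 and 3 it had 120.2, 63.7 and 66.8 CPM. LX-2Vector 3 was high and LX-2FAP 1 nearly met the other controls, so the groups were separated by a gap of a few CPM. The mean was 166 ± 67.0 CPM in the LX-2Vector libraries and 83.6 ± 31.8 CPM in LX-2FAP (SD, n = 3), a log2FC of -0.98 (SE 0.23), or 49.2% lower. That difference was about as large as the range inside each group, which was 0.98 on the log2 scale in LX-2Vector and 0.92 in LX-2FAP. With LX-2Vector 3 left out the log2FC was -0.59, and with LX-2FAP 1 left out it was -1.34.

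PPFIA4 (liprin-α4, a scaffold protein of the liprin family; ENSG00000143847, chromosome 1, 203026498 to 203078740, plus strand), whose promoter carries the palindrome shown above, had 34.4, 31.6 and 48.1 CPM in LX-2Vector 1 to 3 and 27.3, 13.8 and 17.1 CPM in LX-2FAP 1 to 3. The same LX-2Vector and LX-2FAP libraries were the high ones as for NDRG1, and the groups did not overlap. The means were 38.04 ± 8.87 and 19.4 ± 7.04 CPM (log2FC -0.95, SE 0.18), or 48.3% lower in LX-2FAP. The value moved between -0.74 without LX-2Vector 3 and -1.29 without LX-2FAP 1.

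DDIT4 (REDD1, which restrains the growth kinase complex mTORC1 during stress; ENSG00000168209, chromosome 10, 72273920 to 72276036, plus strand) had 46.2, 42.1 and 57.8 CPM in the LX-2Vector libraries and 38.9, 27.9 and 27.0 CPM in LX-2FAP, in the order of the replicates. No LX-2FAP library reached the lowest LX-2Vector library. The mean went from 48.7 ± 8.16 to 31.3 ± 6.62 CPM (log2FC -0.63, SE 0.12), 35.5% lower, and the log2FC ran from -0.83 without LX-2FAP 1 to -0.49 without LX-2Vector 3. Of its exon bases 41.2% lie opposite DDIT4-AS1, an antisense gene, and the use of strand in counting is not given in the sources used here, so part of the DDIT4 count is uncertain.

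BNIP3 and BNIP3L, related outer mitochondrial membrane proteins of the BCL2 family that recruit autophagy to mitochondria, had the highest levels per length of the 10 and differed less. BNIP3 (ENSG00000176171, chromosome 10, 131966455 to 131982013, minus strand) had 150.9, 154.0 and 200.4 CPM in the LX-2Vector libraries and 155.9, 121.4 and 135.9 CPM in LX-2FAP, with means of 168 ± 27.7 and 138 ± 17.3 CPM (SD, n = 3) and a log2FC of -0.29 (SE 0.09). BNIP3L (ENSG00000104765, chromosome 8, 26382898 to 26505636) had 347.7, 377.4 and 435.4 CPM in the LX-2Vector libraries and 371.7, 299.5 and 331.4 CPM in LX-2FAP, with means of 387 ± 44.6 and 334 ± 36.2 CPM and a log2FC of -0.21 (SE 0.08). LX-2FAP 1 lay above LX-2Vector 1 for both genes, so the groups overlapped. BNIP3 has 39 annotated pseudogenes, which together held 279 counts in LX-2Vector and 260 in LX-2FAP, and shares 5.63% of its 75-base words with BNIP3P1. Of the BNIP3L exon bases 8.96% lie opposite other genes, PNMA2 among them.

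AK4 (a mitochondrial adenylate kinase; ENSG00000162433, chromosome 1, 65147549 to 65232145, plus strand) followed the pattern of NDRG1 at a lower level. It had 13.6, 14.5 and 22.4 CPM in the LX-2Vector libraries and 14.2, 8.84 and 8.83 CPM in LX-2FAP. LX-2FAP 1 lay inside the LX-2Vector range, and the other LX-2FAP libraries lay below it. The means were 16.8 ± 4.84 and 10.6 ± 3.09 CPM (SD, n = 3), and the log2FC was -0.64 (SE 0.18), and -0.37 without LX-2Vector 3. AK4 shares 9.26% of its 75-base words with other transcripts, AK4P1 and other pseudogenes among them.

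KDM3A and ADM, the other well-detected genes, were 6.61% and 6.62% lower in LX-2FAP. KDM3A (a histone H3 lysine demethylase that needs oxygen for catalysis; ENSG00000115548, chromosome 2, 86440647 to 86492716) had 117.3, 115.8 and 130.4 CPM in the LX-2Vector libraries and 115.7, 108.9 and 114.6 CPM in LX-2FAP. The groups just failed to overlap, with means of 121 ± 8.03 and 113 ± 3.66 CPM, and the log2FC was -0.10 (SE 0.05). ADM (adrenomedullin, a secreted vasodilator peptide; ENSG00000148926, chromosome 11, 10304680 to 10307397) had 54.7, 51.1 and 53.1 CPM in the LX-2Vector libraries and 46.0, 53.6 and 49.4 CPM in LX-2FAP. Here the groups overlapped, with means of 52.96 ± 1.84 and 49.6 ± 3.82 CPM, and the log2FC was -0.10 (SE 0.06). Its promoter window and that of KDM3A held GCGTG but not ACGTG.

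ANKRD37 and CA9 were close to the limit of detection. ANKRD37 (an ankyrin repeat protein; ENSG00000186352, chromosome 4, 185396021 to 185400628) had 16, 18 and 13 counts in LX-2Vector and 14, 12 and 8 in LX-2FAP. The ranges overlapped, and the depth-scaled ratio of the pooled counts, LX-2Vector over LX-2FAP, was 1.33 with an exact 95% interval from 0.839 to 2.14, while its fitted log2FC was -0.42 (SE 0.33). CA9 (carbonic anhydrase IX, a cell surface enzyme of pH control and a common marker of low oxygen in tumors; ENSG00000107159, chromosome 9, 35673856 to 35681159) had 9, 5 and 8 counts in LX-2Vector and 1, 1 and 3 in LX-2FAP, and did not pass the filter. The pooled ratio for CA9 was 4.24, with an exact 95% interval from 1.57 to 14.3. Both intervals cover counting error only. Genes on the other strand overlap 35.2% of the ANKRD37 exon bases (UFSP2) and 38.5% of those of CA9 (ARHGEF39), which makes counts this low uncertain.

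Between genes, levels were compared as FPKM, which divides by gene length. In LX-2Vector the order was BNIP3L (93.98 ± 11.1 FPKM), BNIP3 (31.9 ± 5.30), DDIT4 (23.2 ± 3.90), ADM (22.95 ± 0.703), NDRG1 (13.9 ± 5.65), KDM3A (9.18 ± 0.621), PPFIA4 (3.95 ± 0.925), AK4 (2.24 ± 0.648), ANKRD37 (0.335 ± 0.109) and CA9 (0.209 ± 0.0286; SD, n = 3 each). DDIT4 and ADM overlapped in their values and could not be ordered, and no other neighbours overlapped. DDIT4 also overlapped NDRG1, which lay below ADM, since the lowest DDIT4 library had 20.1 FPKM and the highest NDRG1 library 20.4.

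The order of the libraries inside each group is given as a description. It is not independent of the choice of NDRG1 and PPFIA4, since LX-2Vector 3 enters the differences by which they were chosen, and their log2FCs were -0.59 and -0.74 without it. LX-2Vector 3 had the highest value of its group for 7 of the 9 tested genes (NDRG1, PPFIA4, DDIT4, BNIP3, BNIP3L, KDM3A and AK4), a place it held for 33.7% of all tested genes. LX-2FAP 1 was the highest of its group for the same 7 genes, against 36.2% of all tested genes. ADM and ANKRD37 were the exceptions in both groups. Gene-centred log2 CPM, the log2 CPM of a gene minus its mean over the 6 libraries, had a median over the 9 genes of 0.06, 0.13 and 0.41 in LX-2Vector 1 to 3 and 0.04, -0.32 and -0.51 in LX-2FAP 1 to 3. By this median LX-2FAP 1 lay nearest to LX-2Vector 1. For NDRG1, PPFIA4 and DDIT4 it lay below every LX-2Vector library, with gene-centred values of 0.10, 0.05 and 0.01 against 0.14, 0.26 and 0.13 in LX-2Vector 2, the lowest control. FAP itself had 620.1, 842.8 and 706.7 CPM in LX-2FAP 1 to 3, and total counts were 24196402 in LX-2FAP 1 and 21070099 in LX-2Vector 3. The part of FAP level or depth in the order of the libraries was not tested.

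**Figure D2:**
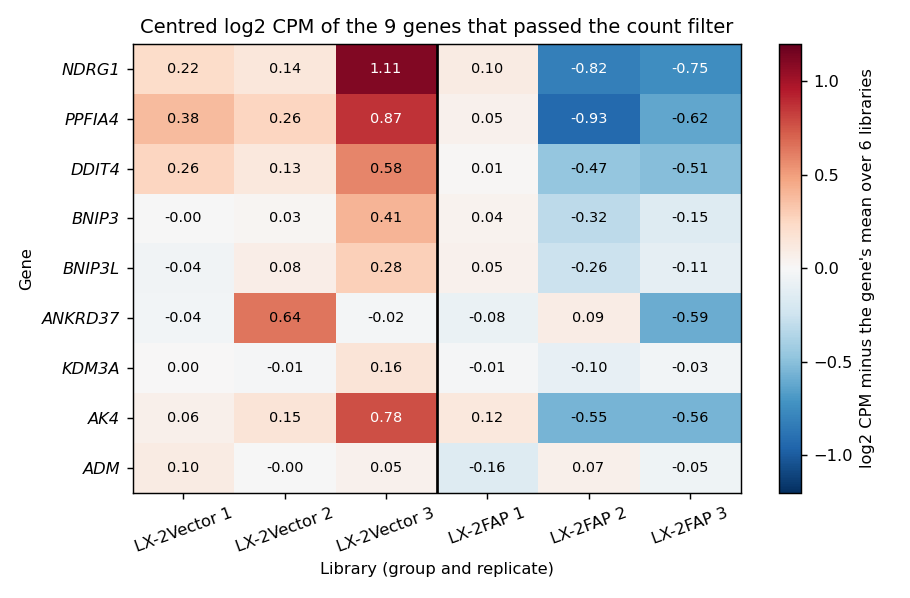
Log2 CPM of each gene minus its mean over the 6 libraries, for the 9 genes that passed the count filter (rows) in each library (columns), with red above and blue below the mean and LX-2FAP to the right of the line. LX-2Vector 3 is the reddest column for 7 of 9 genes (NDRG1 at 1.11), LX-2FAP 2 and 3 are blue for NDRG1, PPFIA4, DDIT4 and AK4, and LX-2FAP 1 is near 0.

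The genes whose pattern over the 6 libraries lay nearest to that of NDRG1 were sought among the 11555 tested genes that averaged 100 or more counts, by the root mean square (RMS) difference of gene-centred log2 CPM. The nearest were FER1L4 (RMS difference 0.096), LOX (0.147), PPFIA4 (0.149), SERPING1 (0.184) and RNF207 (0.189). Of the other hypoxia-regulated genes of the set, AK4 ranked 7, DDIT4 17, BNIP3 175, BNIP3L 439, KDM3A 1604 and ADM 4549, while ANKRD37 and CA9 were below the count limit. This distance includes the difference between the groups by which NDRG1 and PPFIA4 were chosen, so the ranks are a description and nothing is read from them. FER1L4, annotated as a pseudogene, had 13.7, 13.3 and 21.4 CPM in the LX-2Vector libraries and 11.5, 6.004 and 6.68 CPM in LX-2FAP, which repeats the high LX-2Vector 3 and the intermediate LX-2FAP 1. LOX, which crosslinks collagen and is itself raised by low oxygen, had 64.0, 64.3 and 146.6 CPM in the LX-2Vector libraries and 66.0, 38.9 and 44.1 CPM in LX-2FAP, and its groups overlapped. SERPING1, the C1 esterase inhibitor, had 14.7, 15.8 and 21.5 CPM in the LX-2Vector libraries and 14.4, 7.45 and 8.59 CPM in LX-2FAP. RNF207 had 14.7, 14.8 and 19.5 CPM in the LX-2Vector libraries and 12.7, 7.12 and 7.50 CPM in LX-2FAP.

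Of 26 other hypoxia targets outside glycolysis, all tested, 8 fell (BHLHE40, CA12, KDM4B, LOXL2, PLOD1, RAB20, STC2 and TMEM45A) and 0 rose, beside 2.73% and 2.57% of all tested genes. This list and those that follow were chosen with earlier results of these data known, so their counts are a description and not an independent test. Their median log2FC was -0.23, and 23 of 26 were below 0. BHLHE40, a transcriptional repressor of the circadian clock, fell to 103 ± 19.6 CPM from 147 ± 20.2 CPM in the controls (log2FC -0.51, SE 0.10, edgeR adjusted p = 0.0152). CA12, a membrane carbonic anhydrase like CA9, fell from 2.87 ± 0.418 to 1.36 ± 0.487 CPM (-1.04, SE 0.22, edgeR adjusted p = 0.0177). STC2, a secreted glycoprotein, fell from 90.4 ± 6.10 to 75.6 ± 2.00 CPM (-0.26, SE 0.05, edgeR adjusted p = 0.0144), and TMEM45A from 7.35 ± 1.55 to 4.36 ± 1.09 CPM (-0.72, SE 0.17, edgeR adjusted p = 0.0298). VEGFA, the main angiogenic growth factor under HIF control, had 90.3 ± 9.28 and 78.6 ± 3.74 CPM (log2FC -0.20, edgeR adjusted p = 0.0826), and LOX a log2FC of -0.87 (edgeR adjusted p = 0.0528). The gene-centred library medians of this list, 0.04, 0.06 and 0.25 in LX-2Vector and 0.01, -0.19 and -0.16 in LX-2FAP, had the same highest library in each group as the 9 genes above. Without LX-2FAP 3 the count of 8 was 0, with 18 at an unadjusted p under 0.05, beside 2673 of all 18822 genes tested there. Without LX-2FAP 2 it was 0, with 19 at an unadjusted p under 0.05, beside 2924 of 18765. Without LX-2Vector 3, 1 fell and 1 rose, beside 179 and 216 of all 18652 genes tested there. An unadjusted edgeR p under 0.05 was then found for 14 of the 26, beside 3394 of 18652. The count was 18 without LX-2FAP 1, where 5.62% of all tested genes fell, and 4 with the DESeq2 Wald test, where 2.23% did.

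The glycolytic targets, a list chosen in the same way, were counted to set beside these genes. Of 22 tested, 10 fell and 0 rose, beside 2.73% and 2.57% of all tested genes, with a median log2FC of -0.19. Those that fell included ALDOC (-0.81, SE 0.15, edgeR adjusted p = 0.0100), ENO2 (-0.49, SE 0.09, edgeR adjusted p = 0.0122) and SLC2A1 (-0.33, SE 0.07, edgeR adjusted p = 0.0170). ALDOC ranked 10 in likeness to NDRG1. Without LX-2FAP 3 the count of 10 was 0, with 12 at an unadjusted p under 0.05, beside 2673 of all 18822 genes tested there. It was 2 without LX-2FAP 2, 4 without LX-2Vector 3 and 6 without LX-2Vector 1. In those fits 0.341%, 0.96% and 1.15% of all tested genes fell, in the same order.

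The genes that make and sense HIF differed little. Of 12 subunits, sensors and coactivators, 10 were tested, and 0 fell and 1 rose, beside 2.73% and 2.57% of all tested genes. A fitted value below 0 was found for 8 of 10, and the median log2FC was -0.06. HIF1A, the α subunit of HIF-1, rose from 879 ± 18.0 to 971 ± 18.9 CPM (log2FC 0.14, SE 0.04, edgeR adjusted p = 0.0312). EPAS1, the α subunit of HIF-2, had 161 ± 8.45 and 149.9 ± 5.46 CPM (-0.10, SE 0.05, edgeR adjusted p = 0.209). EGLN3, a prolyl hydroxylase that is also a HIF target, had 3 to 9 counts per library and did not pass the filter, and HIF3A had 0 to 1. HIF1A was not past the threshold with library size alone (0.12) or without LX-2Vector 1 (0.13), LX-2Vector 3 (0.15), LX-2FAP 2 (0.16) or LX-2FAP 3 (0.15). Transcript counts do not measure HIF-α protein, which is where oxygen acts.

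**Figure D3:**
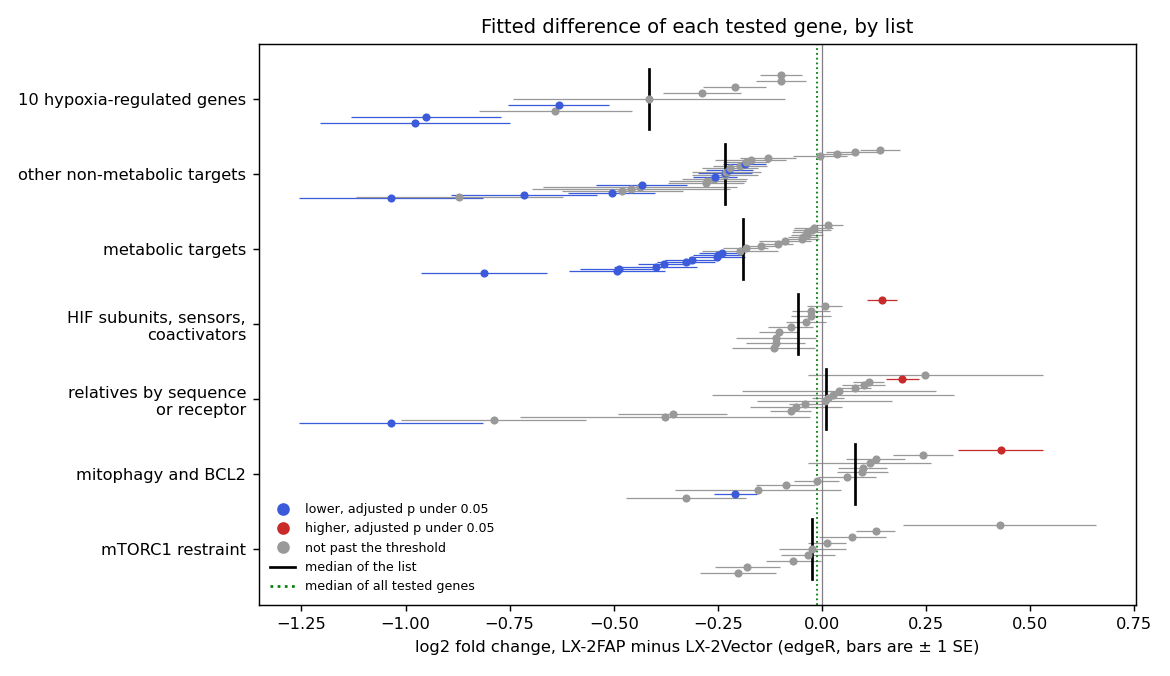
Fitted log2FC of LX-2FAP minus LX-2Vector (edgeR) with ± 1 SE for each tested gene, in rows by list, with the list median as a black bar and the median of all tested genes as a dotted line at -0.01. The list medians are -0.42 for the 10 hypoxia-regulated genes, -0.23 for the other non-metabolic targets, -0.19 for the metabolic targets and -0.06 for the HIF subunits, sensors and coactivators.

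Relatives of the 10 genes by sequence or by receptor were examined next. Of 21, 16 were tested, 1 fell (CA12, above) and 1 rose, beside 2.73% and 2.57% of all tested genes, with a median log2FC of 0.01. Nothing is read about the list from counts this small. JMJD1C, a relative of KDM3A, rose from 233 ± 3.34 to 266 ± 8.27 CPM (log2FC 0.19, SE 0.04, edgeR adjusted p = 0.0152), while KDM3B had a log2FC of -0.04 (SE 0.04). In the NDRG family, NDRG4 had 1.87 ± 0.250 and 1.07 ± 0.265 CPM (-0.79, SE 0.22, edgeR adjusted p = 0.0501), NDRG2 -0.36 (edgeR adjusted p = 0.115) and NDRG3 -0.08. The liprins PPFIA1 and PPFIA3 had log2FCs of 0.01 and -0.06, and DDIT4L, the paralog of DDIT4, 0.04. CALCRL, RAMP1 and RAMP3, parts of the adrenomedullin receptors, did not pass the filter. JMJD1C was not past the threshold without LX-2FAP 2 (0.19) or LX-2FAP 3 (0.18), and CA12 was not without LX-2Vector 3 (-0.90), LX-2FAP 2 (-0.90) or LX-2FAP 3 (-0.89).

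Among 12 genes of mitophagy and BCL2 partners, which act with BNIP3 and BNIP3L, 1 fell and 1 rose, beside 2.73% and 2.57% of all tested genes (median log2FC 0.08) and nothing is read about the list from these counts either. OPTN, an autophagy receptor, fell from 116 ± 6.995 to 100.03 ± 5.19 CPM (log2FC -0.21, SE 0.05, edgeR adjusted p = 0.0326). BCL2, the anti-apoptotic partner of BNIP3, rose from 7.06 ± 0.447 to 9.52 ± 0.709 CPM (0.43, SE 0.10, edgeR adjusted p = 0.0263). Neither was past the threshold without LX-2Vector 1, LX-2Vector 3, LX-2FAP 2 or LX-2FAP 3. Of 9 genes around mTORC1, on which DDIT4 acts, 0 passed the edgeR threshold, and 0 passed with the DESeq2 Wald test. An unadjusted edgeR p under 0.05 was found for 3, beside 4054 of all 18275 tested genes. Without LX-2FAP 1, 3 passed (2 lower and 1 higher), beside 1949 of 18794. TSC2 had a log2FC of -0.18 (edgeR adjusted p = 0.188) and RHEB of 0.13 (edgeR adjusted p = 0.110).

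**Figure D4:**
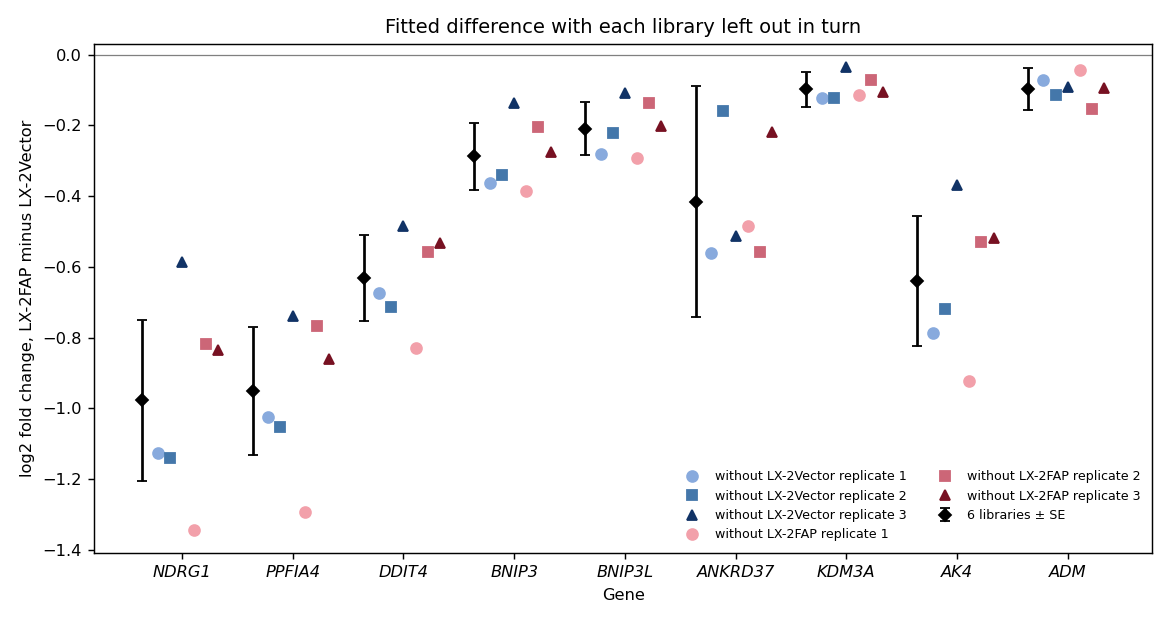
Fitted log2FC (LX-2FAP minus LX-2Vector) of the 9 tested genes with all 6 libraries (black diamonds, ± SE) and with each library left out in turn (colored symbols). All values lie below 0, NDRG1 runs from -1.34 without LX-2FAP 1 to -0.59 without LX-2Vector 3, and KDM3A and ADM run no lower than -0.12 and -0.15.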

How the data were processed

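RNA-seq of 6 LX-2 libraries was analysed, 3 LX-2Vector and 3 LX-2FAP, grouped and numbered by their titles. The authors aligned reads with HISAT2 and counted them per gene with featureCounts. The deposited counts are raw whole numbers. The deposited FPKM values were computed by the authors from those counts and each gene's length. The submitters' processing notes name HISAT2 2.0.5, featureCounts 1.5.0-p3 and build hg18. Neither the annotation release nor a strand setting is given in the sources used here. The labels describe RNA depleted of ribosomal RNA, and the methods also name poly(A) isolation. Coordinates, exon overlaps and shared 75-base words were looked up by Ensembl identifier in GENCODE release 29 (GRCh38), and promoter windows came from RefSeq (GRCh38.p14). The length behind the deposited FPKM was the same as the summed exons of GENCODE 29 for 3 of the 10 genes (for NDRG1 it was 12002 against 9823), so the exons counted may differ from those in which overlaps were looked up.

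The main test was the edgeR 4.0.16 quasi-likelihood test on counts (TMM, default filter with a minimum count of 10 and a minimum total of 15), 2-sided, with Benjamini-Hochberg adjustment over the 18275 tested genes and a call at an adjusted p under 0.05. SEs were derived from the test statistic. The fit was tested on simulated data. Alternatives were DESeq2 1.42.0 (size factors, Wald test), library size alone, other filters, limma-trend (limma 3.58.1) on log2(FPKM + pseudocount) with 1 or 0.1 added, a block for the replicate number and each library left out. The smallest 2-sided p of an exact permutation test on 1 gene is 0.1 for groups of 3. Total counts ran from 17355700 to 26352060, and replicate pairs had a chi-square per degree of freedom of 2.06 to 5.02, above that of counting noise alone.

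The genes and lists were chosen with earlier results of these data known. Genes named are the 10 members, FAP, list genes that were called or serve as examples of their list, VEGFA, HIF1A, EPAS1 and EGLN3, and the 5 genes nearest to NDRG1 in pattern. The ranks of the members in that ordering were looked up after it was seen. Beyond the 7 stellate markers given, 1 gene of that list is not reported here.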

Additional observations from a re-analysis of the deposited data

How the results depend on the processing

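FAP stayed higher in LX-2FAP under every alternative, with a log2 fold change of 6.27 to 8.45, and of 8.17 to 8.45 with each library left out. The 9 tested genes kept a fitted value below 0 in each alternative that tested them. Leaving out each library in turn gave 26 to 1949 genes called (14 to 892 higher, 12 to 1057 lower), 0 to 6 of the 10 genes called lower and 0 called higher (3 and 0 with all libraries, counts from which nothing is read, since this contrast chose NDRG1 and PPFIA4), and a median log2 fold change of -0.56 to -0.28 for them. In the same fits 0 to 18 other non-metabolic targets, 0 to 12 metabolic targets, 0 to 1 HIF subunits, sensors and coactivators, 0 to 3 relatives, 0 to 4 mitophagy genes and 0 to 3 mTORC1 genes were called. LX-2FAP replicate 3 left out gave the fewest calls and LX-2FAP replicate 1 left out the most.

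With limma-trend on FPKM, at either pseudocount, 2 genes were called, 1 higher and 1 lower, with 0 in each list. An unadjusted p under 0.05 was found for 3662 of the 18275 tested genes with 1 added and for 3638 with 0.1 added. The cause of the low number of calls was not tested. The DESeq2 Wald test called 0 of the 10 genes and 4 other non-metabolic targets lower, beside 2.23% of all tested genes. It called 1 of the relatives higher, beside 614 of all 18275 tested genes. Nothing is read from the counts of the 10 genes in this or the other fits. Library size alone gave 239 genes higher and 809 lower, 13 other non-metabolic targets and 0 HIF genes, with a median of -0.04 over all tested genes where TMM gave -0.01. With all genes that had a count and no filter, 1606 genes were called, 929 of them lower (2.26%). Those lower included 7 of the 10 genes, 17 other non-metabolic targets and 2 mTORC1 genes, and 1 other non-metabolic target was higher. In that fit the prior degrees of freedom were infinite, against 11.8 with the filter, so each gene took the spread of the trend.

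No pairing by replicate number was seen. The deviations of same-numbered libraries from their group means correlated at -0.04, 0.04 and -0.01, and those of other pairs at -0.11 to 0.12. Such values cannot show whether same-numbered libraries were handled together. With the replicate block 975 genes were called (465 higher, 510 or 2.79% lower), 3 of the 10 genes among those lower, and the median of the tested ones of the 10 was -0.42. The block called 8 other non-metabolic, 11 metabolic, 1 HIF, 2 relative, 3 mitophagy and 0 mTORC1 genes, and the FAP log2 fold change was 8.30.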
